A study of Mus musculus with 9 samples.

Results

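The TTP family of CCCH zinc-finger proteins was followed through RiboSeq, which counts ribosome-protected mRNA fragments per gene, in 9 libraries of mouse macrophages. The family has 3 members here, Zfp36 (TTP itself), Zfp36l1 and Zfp36l2, which were picked by gene symbol among 16921 genes in the deposited table of normalized counts. All libraries came from TTP-deficient bone marrow-derived macrophages (BMDMs) that had been immortalized with the oncogenes hcmyc and hRasG12V, sorted for the surface proteins CD11b and F4/80, and transduced with an all-in-one tet-inducible retroviral vector. The vector expressed GFP alone, a GFP fusion of wild-type TTP (GFP-TTP) or a GFP fusion of a TTP mutant (GFP-TTP-AA), and each construct was represented by 3 libraries numbered 1, 2 and 3. Every culture received doxycycline (1 µg/ml, 6 h in all) to induce the construct and lipopolysaccharide (LPS, 1 µg/ml, 1 h) to activate the cells, so neither uninduced nor unstimulated cells are part of the comparison. Only the coding sequence of TTP was placed in the constructs, and in TTP-AA the serines 52 and 178 were replaced by alanine (S52A and S178A). As a model the system has limits. Each construct defines 1 separately transduced line, so that construct and line cannot be told apart, expression is driven by doxycycline and not by the endogenous promoter, and all cells carry the immortalizing oncogenes. The macrophage identity of the lines held in the counts, as 8 of 9 macrophage markers (among Csf1r, Cd68, Itgam, Adgre1, Cd14, Lyz2, Fcgr1, Mertk and Ptprc) had a mean of at least 10 scaled counts. No marker of T cells, B cells, fibroblasts or neutrophils that had values exceeded a mean of 1.30. Values existed for 2 of 5 T cell, 2 of 5 B cell, 3 of 5 fibroblast, 3 of 5 neutrophil and 0 of 4 mast cell markers. The summed level of the macrophage markers was 97043 scaled counts in the GFP line, 78102 in the GFP-TTP line and 109504 in the GFP-TTP-AA line, and its part in the results on the family was not tested. A large part of this sum came from 1 marker, with a mean of 60794.

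Proteins of this family bind AU-rich elements (AREs) in the 3′ untranslated region (3′UTR) of short-lived mRNAs through a pair of CCCH zinc fingers. They recruit the CCR4-NOT deadenylase and decapping factors and thereby speed up decay or block translation of cytokine and other inflammatory mRNAs. In LPS-stimulated macrophages the p38-activated kinase MK2 phosphorylates TTP at serines 52 and 178, 14-3-3 proteins then bind, and TTP is held in a less active but more stable form. TTP-AA cannot be phosphorylated at either site. The family mRNAs carry AREs of their own and are among the transcripts that the family is known to regulate.

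The gene models were read from GENCODE vM21 on the GRCm38 build, which the authors' alignment also used. Zfp36 (ENSMUSG00000044786) lies on the minus strand of chromosome 7 (chr7:28376784-28380253), has 2 exons and encodes 319 amino acids. Zfp36l1 (ENSMUSG00000021127) lies on the minus strand of chromosome 12 (chr12:80107754-80113013) and encodes 338 amino acids, and Zfp36l2 (ENSMUSG00000045817) lies on the minus strand of chromosome 17 (chr17:84183931-84187947) and encodes 484. The chosen transcript of each member held 2 CCCH zinc fingers in its translation. Over 58 residues that span both fingers, Zfp36l1 and Zfp36l2 were 93.1% identical to each other, while Zfp36 was 67.2% identical to Zfp36l1 and 69% identical to Zfp36l2. Outside the fingers the proteins differ more, as identity over all aligned residues was 65.6% for Zfp36l1 with Zfp36l2, 50% for Zfp36 with Zfp36l1 and 49.3% for Zfp36 with Zfp36l2.

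Every member carried AREs in its 3′UTR, and the fullest match of each is shown because it is the element class through which the family mRNAs are themselves recognized. The nonamer TTATTTATT, searched on the transcript strand, occurred 1 time in each 3′UTR. It is printed in capitals with its flanks, from the 5′ to the 3′ end of the transcript strand (minus strand of the genome, GRCm38).
Zfp36, chr7:28376951-28376979: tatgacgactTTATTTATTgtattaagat
Zfp36l1, chr12:80108167-80108195: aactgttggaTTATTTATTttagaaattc
Zfp36l2, chr17:84184914-84184942: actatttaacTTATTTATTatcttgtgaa
The shorter heptamer TATTTAT, which the nonamer contains, occurred 3 times in each 3′UTR, and the pentamer ATTTA, contained in both, occurred 3 times in Zfp36, 9 times in Zfp36l1 and 5 times in Zfp36l2. The nonamer was present in 5.16% of 1319 3′UTRs of the genes measured here with a length close to that of Zfp36 (774 nt, neither length under 0.8 of the other), in 8.09% of 1458 close to Zfp36l1 (1835 nt) and in 7.94% of 1448 close to Zfp36l2 (1822 nt). At least 3 heptamers were found in 0.91%, 3.09% and 3.11% of the same 3′UTRs, respectively, while at least 1 pentamer was found in 66.5%, 89.3% and 89.2%. These matches describe letters in the reference and not measured binding. Because the constructs hold coding sequence only, none of the ARE sites in Zfp36 belongs to a construct mRNA.

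**Figure D1:**
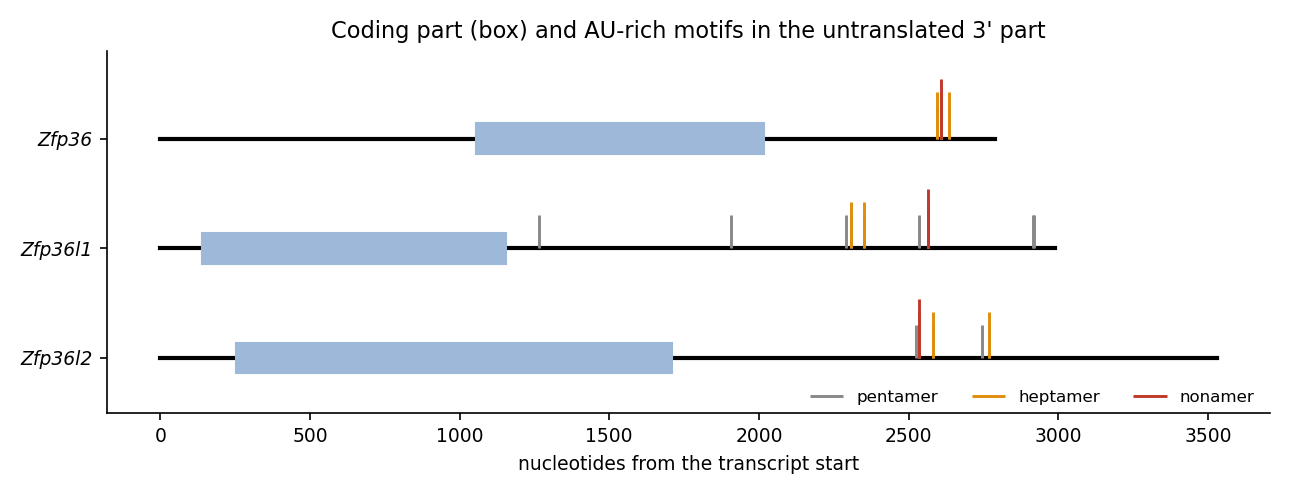
Transcripts of the 3 family members drawn to scale, in nucleotides from the transcript start. Boxes mark the coding part (960 nt in Zfp36, 1017 nt in Zfp36l1 and 1455 nt in Zfp36l2), and ticks mark the pentamer (grey), heptamer (orange) and nonamer (red) of the ARE class in the 3′UTR, where the tick of a longer motif covers the shorter ones inside it; the matches in Zfp36 lie close together near the 3′ end.

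The serine codons that distinguish TTP-AA from wild-type TTP are shown because they are the only designed difference between the GFP-TTP and GFP-TTP-AA constructs. Residues are counted from 1 at the initiator methionine, and the serine codon of the mouse reference is in capitals (GRCm38, minus strand, read 5′ to 3′).
Zfp36 codon 52, chr7:28378347-28378376: ggccgctccactAGCctggtggagggccga
Zfp36 codon 178, chr7:28377969-28377998: cgacaaagcatcAGCttctccggcttgccc
Zfp36l1 codon 203, chr12:80109982-80110011: cagcatagctttAGCtttgctgggtttccc
Zfp36l2 codon 263, chr17:84186404-84186433: catcacagcctcAGTttctccggcttcccg
Serine 178 aligned with serine 203 of Zfp36l1 (6 of 11 residues around it identical) and with serine 263 of Zfp36l2 (7 of 11). Around serine 52 the alignment was too loose to name a counterpart, with 4 of 11 and 0 of 11 residues identical. No construct or allele named in the labels alters Zfp36l1 or Zfp36l2.

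The values in the deposited table are not observed counts. They are model means from the authors' fit with DESeq2, built from 1 term for the condition and 1 for the replicate number, where the methods name the library date. They were divided by the size factor of their library and are given as scaled counts. The fold between conditions is therefore the same for each replicate number by construction, the 3 values of a condition differ only by the replicate term, and their overlap or lack of it is no measure of replicate spread. Errors come from the standard error (SE) that the same model gave for each gene and comparison. Fold changes in this model are shrunken toward 0. Significance was judged by a Wald test (log2 fold change over its SE) with Benjamini-Hochberg adjustment over all genes with a mean of at least 10 scaled counts and an SE, at an adjusted p of 0.05. Summed over genes, a library held between 2570292 and 12804501 in fitted values, and the median log2 fold change over all genes tested was 0.00 in each comparison.

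Zfp36 was the member that the constructs encode, and its footprints rose from GFP through GFP-TTP to GFP-TTP-AA. In the GFP line it had 442.8, 436.4 and 500.4 scaled counts in libraries 1, 2 and 3. In the GFP-TTP line it had 897.3, 881.6 and 1008.3, and in the GFP-TTP-AA line 1487, 1456 and 1671. Library 3 was the highest in each line, which is 1 fitted replicate term shared by all 3 lines (log2 of 0.17 between libraries 3 and 1). The GFP line holds no TTP construct and is TTP-deficient, yet the fitted level of Zfp36 there was 459.0, the geometric mean of its 3 libraries. This is a model mean, from a fit that shrinks fold changes toward 0, and not a level of observed reads. A gene-level table does not resolve whether a footprint came from the endogenous allele or from a construct, and which exon the TTP-deficient allele alters is not given in the sources used here.

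**Figure D2:**
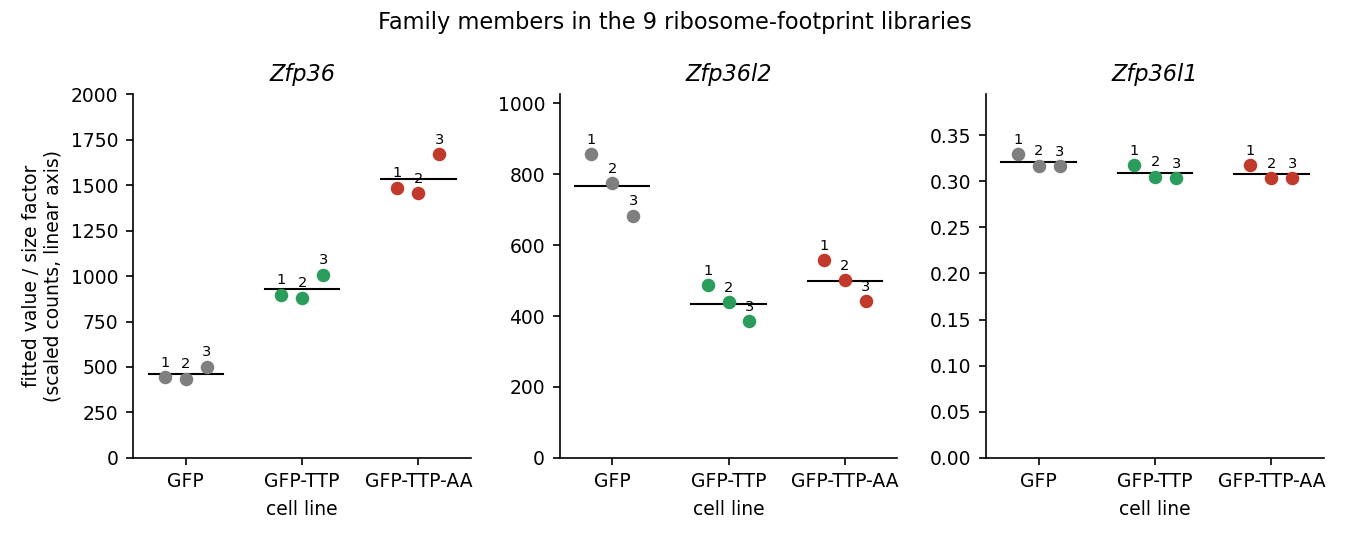
Scaled counts (fitted value divided by the size factor, linear axis from 0, with a scale of its own in each panel) of Zfp36, Zfp36l2 and Zfp36l1 in the 3 libraries of each line, numbered by replicate, with a line at the geometric mean. Zfp36 climbs from 459.0 in GFP to 927.4 in the GFP-TTP line and 1535 in the GFP-TTP-AA line, Zfp36l2 is highest in GFP, and Zfp36l1 stays near 0.3 in all 9 libraries.

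In GFP-TTP against GFP the log2 fold change of Zfp36 was 1.01 (SE 0.25, 95% interval 0.52 to 1.51), that is 2.02-fold, with an adjusted p = 0.0048 in the Wald test. It ranked 16 from the top of 9938 genes tested, of which 2.1% passed the threshold (0.815% higher and 1.29% lower). In GFP-TTP-AA against GFP the log2 fold change was 1.74 (SE 0.25, 1.25 to 2.23), that is 3.34-fold, with an adjusted p = 2.37e-09 in the same test. Only 5 of 10103 genes had a higher log2 fold change, and 3.02% of the genes passed the threshold (1.74% higher and 1.28% lower). These comparisons use the same GFP libraries, so they are not independent of each other.

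The constructs themselves were compared in GFP-TTP-AA against GFP-TTP. Zfp36 was 1.66-fold higher with the mutant, a log2 fold change of 0.73 (SE 0.25, 0.24 to 1.22) with an adjusted p = 0.0395 in the Wald test. More genes passed the threshold in this comparison than in the others, 10.3% of 10103 (5.59% higher and 4.66% lower), and 273 genes had a higher log2 fold change than Zfp36. The call was lost when the p-values of all 3 comparisons were adjusted together (adjusted p = 0.0651). All neighbours in the order GFP, GFP-TTP, GFP-TTP-AA thus differed in the comparison-wise test, and the difference between GFP-TTP and GFP-TTP-AA was the less firm of them.

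The fitted values of Zfp36 account for less of the observed reads than those of most genes. Their mean over the 9 libraries was 975.6, which is 80.9% of the mean of observed scaled counts that the authors deposited beside their comparisons (1205). The median over 10103 genes was 100.4%, and only 37 genes had a lower share than Zfp36. For Zfp36l2 the share was 99.8%. The SE of Zfp36 (0.25) also lay at the largest SE of any gene, which was 0.25 in each comparison, against a median of 0.19. How far an SE at this upper end holds the gene's own spread cannot be read from the deposited values. The intervals and adjusted p-values of Zfp36 in the Wald test rest on it. In which libraries the observed values of Zfp36 lie above the fitted ones cannot be read from the deposited values, and the part of this gap in the fold changes was not tested.

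Zfp36l2, an endogenous paralog that no construct encodes, moved the other way. It had 856.7, 774.9 and 682.7 scaled counts in libraries 1, 2 and 3 of the GFP line, 486.7, 438.9 and 385.7 in the GFP-TTP line, and 557.8, 501.2 and 441.9 in the GFP-TTP-AA line. The level was 768.1 in the GFP line, 435.1 in the GFP-TTP line and 498.1 in the GFP-TTP-AA line. Library 1 was the highest and library 3 the lowest in every line, which is the same fitted term in each. This replicate difference (log2 of -0.33 between libraries 3 and 1) was of a size usual for these data, as the SD of this term over the 10103 genes kept was 0.29.

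In GFP-TTP against GFP the log2 fold change of Zfp36l2 was -0.82 (SE 0.17, 95% interval -1.15 to -0.49), with an adjusted p = 0.000176 in the Wald test, and 80 of 9938 genes had a lower log2 fold change. The level in GFP was 1.77-fold that in GFP-TTP. In GFP-TTP-AA against GFP the log2 fold change was -0.63 (SE 0.17, -0.95 to -0.30), with an adjusted p = 0.0109, and the level in GFP was 1.54-fold that in GFP-TTP-AA. Between the constructs no difference was resolved, as the log2 fold change in GFP-TTP-AA against GFP-TTP was 0.19 (SE 0.17, -0.13 to 0.52) with an adjusted p = 0.542. The interval does not reach a change of the size seen against GFP, but it leaves room for an increase of up to 0.52 on the log2 scale. The order of the levels was thus GFP-TTP (435.1), GFP-TTP-AA (498.1) and GFP (768.1), of which the lower neighbours did not differ beyond their error and the upper ones did. RiboSeq of a bulk culture cannot tell fewer cells with a transcript from fewer footprints per cell, nor less mRNA from fewer ribosomes on each mRNA, and RNASeq libraries were not analysed here.

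**Figure D3:**
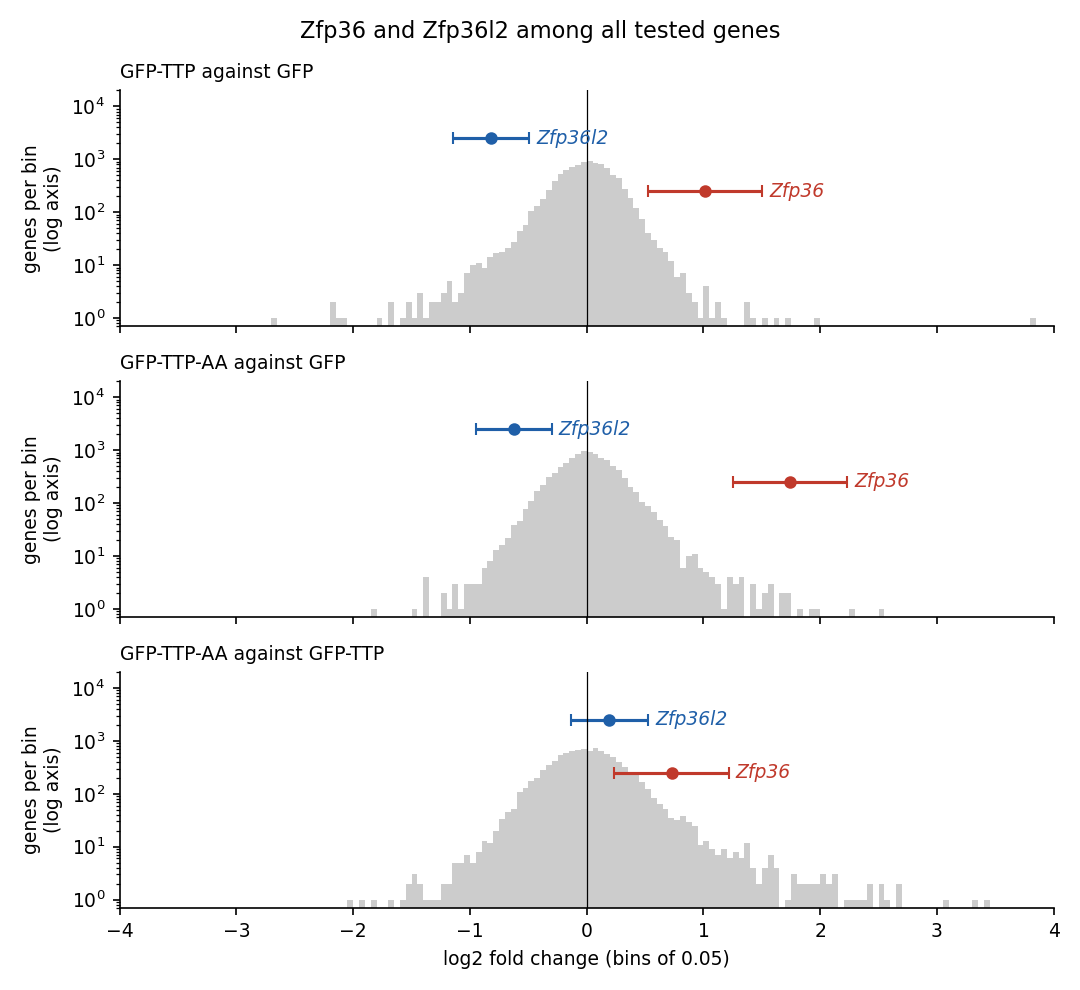
Log2 fold change of Zfp36 and Zfp36l2 (points, with 95% intervals from the model's SE, placed at arbitrary heights) over the distribution of all genes tested in each comparison (grey bars, genes per bin on a log axis). Zfp36 lies in the upper tail in both comparisons with GFP (1.01 and 1.74), Zfp36l2 lies in the lower tail (-0.82 and -0.63), and in GFP-TTP-AA against GFP-TTP the interval of Zfp36l2 includes 0.

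Zfp36l1, which is known as a regulator of mRNA decay in lymphocytes and other tissues, was barely represented in these macrophages. Its scaled counts were 0.329, 0.317 and 0.317 in the GFP libraries, 0.318, 0.305 and 0.304 in the GFP-TTP libraries and 0.317, 0.304 and 0.303 in the GFP-TTP-AA libraries. The fitted values summed to 3.26 over all 9 libraries, which is the amount of a few reads in the whole experiment. Zfp36l1 did not reach a mean of 10 scaled counts, had no SE in the comparisons, and no test or fold is given for it. By its mean it stood above 18.1% of the genes in the table, against 92.2% for Zfp36 and 86.3% for Zfp36l2. In the annotation the antisense lincRNA Gm26669 covers 57 nt (5.62%) of the Zfp36l1 coding sequence, an antisense model (AC132455.1) covers 7.23% of that of Zfp36l2, and none covers that of Zfp36. Whether reads were counted by strand is not given in the sources used here, so reads from these partners cannot be told apart from those of the members.

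Levels of different genes can be set beside each other only per length. Per kilobase of coding sequence, Zfp36 had 478 scaled counts in the GFP line, 966 in the GFP-TTP line and 1599 in the GFP-TTP-AA line, while Zfp36l2 had 528, 299 and 342. In the GFP line the level of Zfp36 was 0.906 of that of Zfp36l2, on values that the model fitted at 80.9% of the observed mean for Zfp36 and at 99.8% for Zfp36l2. It was 3.23 times that of Zfp36l2 in the GFP-TTP line and 4.67 times in the GFP-TTP-AA line. Zfp36 made up 47.5% of the family's footprints per kilobase in GFP, 76.3% in the GFP-TTP line and 82.4% in the GFP-TTP-AA line, with Zfp36l1 at 0.0314% or less throughout. With the length of the whole transcript in place of the coding sequence the ratios were 0.756, 2.70 and 3.90, in the same order. These ratios and shares rest on shrunken fitted values and are descriptions with no test, and the footprints of endogenous and construct-derived Zfp36 are summed in them.

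Genes that lie close to the members on the chromosome were set beside them. Within 1 Mb of Zfp36, the median over the genes tested on the log2 scale was -0.02 for GFP-TTP over GFP (37 genes), 0.02 in GFP-TTP-AA against GFP and 0.07 in GFP-TTP-AA against GFP-TTP (39 genes each), and the highest single values in the comparisons with GFP were 0.47 and 0.36. Of these neighbours 1 passed the threshold in GFP-TTP against GFP, where 2.1% of all genes tested did. It was Gmfg, which was lower (-0.58, adjusted p = 0.0232 in the Wald test). None passed in GFP-TTP-AA against GFP, where 3.02% of all genes tested did. Between the constructs 4 passed, beside 10.3% of all genes tested. Gmfg (0.60, adjusted p = 0.005), Blvrb (0.56, adjusted p = 0.0378) and Yif1b (0.54, adjusted p = 0.0213) were higher in GFP-TTP-AA than in GFP-TTP, as Zfp36 was (0.73), and Actn4 was lower (-0.53, adjusted p = 0.0022). Around Zfp36l2 the medians over 9 genes were 0.00, -0.15 and -0.27. None of these 9 passed the threshold in either comparison with GFP, where 2.1% and 3.02% of all genes did, a share too small for 9 genes to show a difference from it. In GFP-TTP-AA against GFP-TTP, where Zfp36l2 did not pass, Lrpprc (-0.50, adjusted p = 0.00554 in the Wald test) and Prepl (-0.49, adjusted p = 0.0438) were lower, in a comparison in which 10.3% of all genes passed. The neighbours were named after their values were seen.

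The genes with the pattern most like each member were taken as those with the smallest root mean square (RMS) difference of centred log2 scaled counts over the 9 libraries, among 8438 genes with a mean of at least 50. Since the values are fitted, the 9 points carry only 3 condition levels and 3 replicate terms. Nearest to Zfp36 were Tm4sf1 (RMS 0.18), a tetraspan membrane protein, Emp2 (0.21), an epithelial membrane protein, Pcdh7 (0.26), a protocadherin, Chchd10 (0.34), a mitochondrial protein, and Ifitm6 (0.37), an interferon-induced transmembrane protein. Tm4sf1 had 42.1 scaled counts in the GFP line, 65.0 in the GFP-TTP line and 119 in the GFP-TTP-AA line, and Emp2 had 45.3, 64.9 and 120.4. The other 3 followed the steps of Zfp36 less well. Pcdh7 (118.6, 337.6 and 395.3) and Chchd10 (89.6, 233.4 and 249.8) rose mainly from GFP to GFP-TTP. Ifitm6 (95.7, 114.1 and 190.6) rose mainly from GFP-TTP to GFP-TTP-AA. No gene followed Zfp36 as closely as some followed Zfp36l2. Nearest to Zfp36l2 were Klf2 (0.097), a Krüppel-like transcription factor, Mfsd8 (0.098), a lysosomal membrane protein, Cd28 (0.14), a costimulatory receptor, Ppp1r15a (0.14), a regulatory subunit of protein phosphatase 1, and Bloc1s5 (0.14), a subunit of a complex for lysosome-related organelles. Klf2 had 149.3 scaled counts in the GFP line, 87.8 in the GFP-TTP line and 88.9 in the GFP-TTP-AA line. The choice of measure mattered, since ranking by Pearson correlation kept 0 of the 5 genes for Zfp36 and 1 of the 5 (Mfsd8) for Zfp36l2.

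**Figure D4:**
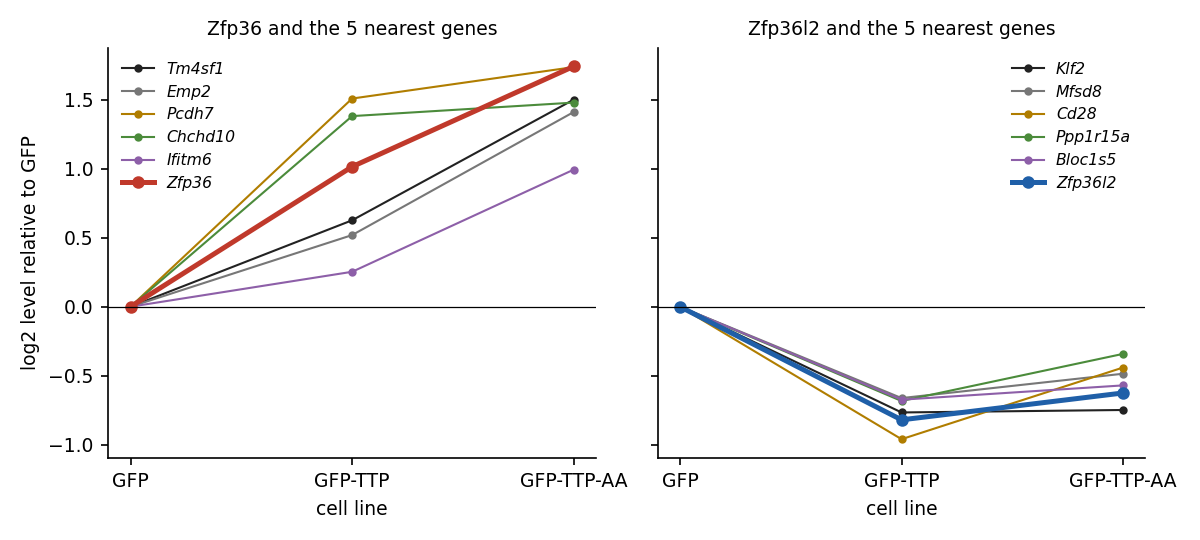
Log2 level relative to the GFP line (geometric mean of 3 libraries per line) for Zfp36 and Zfp36l2 (thick lines) and the 5 genes with the smallest RMS difference to each (thin lines). The genes near Zfp36 end between 0.99 and 1.74 in GFP-TTP-AA, and those near Zfp36l2 lie below 0 in both TTP-expressing lines.

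The partners through which the family acts were then examined by role, in lists that were chosen with earlier results of these data known. Of 21 genes tested for deadenylation, that is the CCR4-NOT and PAN deadenylases and the cofactors that the family binds, 0 passed the threshold in GFP-TTP against GFP, 1 in GFP-TTP-AA against GFP (lower) and 3 in GFP-TTP-AA against GFP-TTP (1 higher and 2 lower). These are 0%, 4.76% and 14.3% of the list, beside the 2.1%, 3.02% and 10.3% of all genes tested. Cnot1, the scaffold that TTP contacts, was at 855.7, 903.0 and 931.2 scaled counts in GFP, GFP-TTP and GFP-TTP-AA, and its log2 fold change between the constructs was 0.04 (SE 0.15, adjusted p = 0.902 in the Wald test). Btg1, an activator of deadenylation, was higher in GFP-TTP-AA than in GFP-TTP (0.85, SE 0.17, adjusted p = 6.03e-05). The poly(A)-binding protein Pabpc1 was lower (-0.67, SE 0.17, adjusted p = 0.00203), as was Tob1, another BTG/TOB family member (-0.47, SE 0.15, adjusted p = 0.0223), and Tob1 was also the gene that fell against GFP (-0.79, SE 0.15, adjusted p = 3.23e-05). The median log2 fold changes of the list were -0.04, 0.00 and -0.09 in the 3 comparisons, beside 0.00 for all genes tested.

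Of 21 genes for decapping, 5′ to 3′ decay and repression through 4EHP, 0 passed in either comparison with GFP. Of all genes tested, 2.1% passed in GFP-TTP against GFP and 3.02% in GFP-TTP-AA against GFP. These shares are too small for 21 genes to show a difference from them. In GFP-TTP-AA against GFP-TTP 2 passed, both lower, which is 9.52% of the list beside 10.3% of all genes tested. These were Gigyf2, a partner of 4EHP (-0.59, SE 0.14, adjusted p = 0.00127 in the Wald test), and the exonuclease Xrn1 (-0.58, SE 0.17, adjusted p = 0.0103). Of 21 kinases, phosphatases, 14-3-3 proteins and others that act on TTP or on the p38-MK2 pathway, 0 passed in either comparison with GFP. This is again beside 2.1% and 3.02% of all genes tested. Between the constructs 1 passed, 4.76% of the list beside 10.3% of all genes tested. It was the 14-3-3 protein Ywhaq, which was higher in GFP-TTP-AA than in GFP-TTP (0.42, SE 0.14, adjusted p = 0.0333 in the Wald test). The kinase Mapkapk2 (MK2) was at 1226, 1214 and 1460 scaled counts in GFP, GFP-TTP and GFP-TTP-AA, and none of its differences passed. Dusp1, the phosphatase that shuts off p38, was at 1831, 1385 and 1170, with log2 fold changes of -0.40 and -0.65 against GFP (SE 0.25 each, adjusted p = 0.575 and 0.142).

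Other ARE-binding proteins compete or cooperate with the family on the same mRNAs. Of 21 tested, 1 was higher in GFP-TTP than in GFP (nucleolin, Ncl, 0.61, SE 0.12, adjusted p = 6.34e-05 in the Wald test) and 1 in GFP-TTP-AA than in GFP (Zc3h12a, the endonuclease Regnase-1, 0.66, SE 0.20, adjusted p = 0.0312). In GFP-TTP-AA against GFP-TTP, Zc3h12a was higher (0.68, SE 0.20, adjusted p = 0.00931) and Ncl lower (-0.65, SE 0.12, adjusted p = 4.05e-06). The genes that passed were 4.76%, 4.76% and 9.52% of this list in the 3 comparisons, beside the 2.1%, 3.02% and 10.3% of all genes tested. The median log2 fold changes of the list were 0.10, 0.06 and -0.15, beside 0.00 for all genes tested.

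Of 37 mRNAs known as targets of the family, 30 were tested, and 0, 3 and 4 passed in the 3 comparisons, that is 0%, 10% and 13.3% beside 2.1%, 3.02% and 10.3% of all genes tested. In GFP-TTP against GFP no target passed, and the median log2 fold change was -0.10. Tnf, the best-known target of TTP, had 11947 scaled counts in the GFP line, 8347 in the GFP-TTP line and 7735 in the GFP-TTP-AA line, and neither its change in GFP-TTP (-0.52, SE 0.25, adjusted p = 0.391 in the Wald test) nor that in GFP-TTP-AA (-0.63, SE 0.25, adjusted p = 0.162) passed. The SEs of Tnf and Dusp1 lay close to the largest of any gene (0.25), so these results do not show that either gene was unchanged. Ier3, an early-response survival factor, fell in GFP-TTP-AA, with 1609, 1236 and 698.2 scaled counts in GFP, GFP-TTP and GFP-TTP-AA, a log2 fold change of -1.20 against GFP (SE 0.16, adjusted p = 2.34e-10) and of -0.82 against GFP-TTP (SE 0.16, adjusted p = 3.55e-05). The other targets that passed against GFP in GFP-TTP-AA, named after their values were seen, were the cytokine subunit Il23a (-1.03, SE 0.24) and the polyamine enzyme Odc1 (0.55, SE 0.14). Il23a lay near the filter of 10, with 16.8, 11.6 and 8.22 scaled counts in GFP, GFP-TTP and GFP-TTP-AA. Between the constructs Ccnd1 (cyclin D1, -0.55, adjusted p = 0.0396) and Ccl3 (a chemokine, -0.42, adjusted p = 0.0265) were lower and Socs3 (a cytokine-signalling inhibitor, 0.53, adjusted p = 0.0297) was higher with the mutant.

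Zfp36 is itself an immediate early gene that LPS induces, so other genes of this class were set beside it. Of 26 tested, 2 passed in GFP-TTP against GFP, 4 in GFP-TTP-AA against GFP and 4 in GFP-TTP-AA against GFP-TTP, in each comparison 1 of them higher. These are 7.69%, 15.4% and 15.4% of the list, beside 2.1%, 3.02% and 10.3% of all genes tested. The gene that rose in both comparisons with GFP was Fosl1, named after its values were seen (0.80 and 0.92), and Klf2 fell in both (-0.77, adjusted p = 0.0315 in the Wald test, and -0.75, adjusted p = 0.0318). In GFP-TTP-AA, Ier2 fell both against GFP (-0.96, SE 0.21, adjusted p = 0.000696) and against GFP-TTP (-0.77, SE 0.21, adjusted p = 0.00547), and Egr3 fell against GFP-TTP (-0.81, SE 0.25, adjusted p = 0.0169). Gadd45b, a stress-response gene, was higher in GFP-TTP-AA than in GFP-TTP (0.72, SE 0.20, adjusted p = 0.00702). The median log2 fold changes of this list were -0.10, -0.08 and -0.01 in the 3 comparisons, beside 1.01, 1.74 and 0.73 for Zfp36. In the GFP-TTP and GFP-TTP-AA lines the footprints of Zfp36 include those of the doxycycline-driven constructs, which encode no gene of this list. Its values therefore do not show how endogenous Zfp36 compares with its class.

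**Figure D5:**
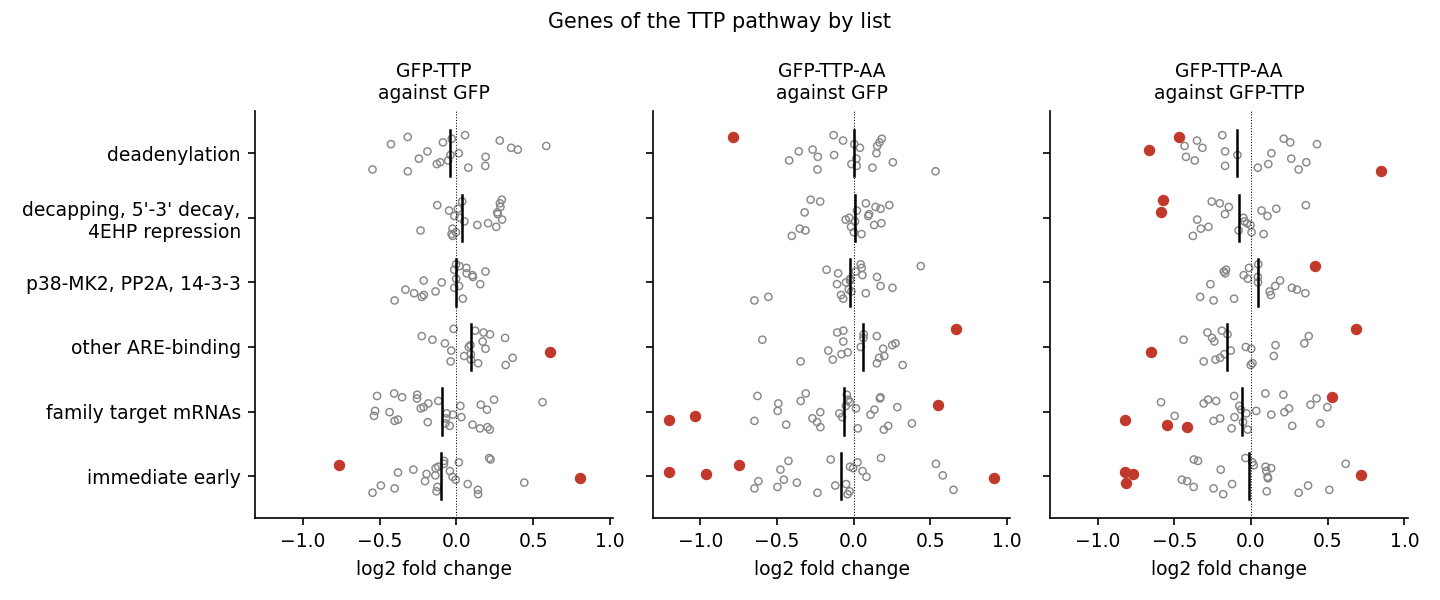
Log2 fold changes of the genes in the 6 lists (deadenylation, decapping with 5′ to 3′ decay and 4EHP repression, p38-MK2 with PP2A and 14-3-3, other ARE-binding proteins, family target mRNAs, immediate early genes) in the 3 comparisons. Open circles did not pass the adjusted p of 0.05, filled red circles did, and bars mark the list median; most genes lie within 0.5 of 0, and Ier3, which is in the last 2 lists, is the lowest in GFP-TTP-AA against GFP.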

How the data were processed

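RiboSeq was analysed in 9 libraries. Per the labels and methods, the authors purified ribosome-protected fragments after ARTseq nuclease digestion, trimmed reads with Trim Galore, aligned them to mm10 (GRCm38) with TopHat2 (2.0.12 in the submitters' processing notes, another release in the methods) and kept at most 2 alignments per read. The authors then counted reads per gene with HTSeq and fitted DESeq2 (1.6.3 in those notes). Reads with 2 alignments may match 2 paralogs, and whether such reads entered the counts was not tested. The authors' deposited table of normalized counts is a signal, the value that the authors' DESeq2 model fitted to a gene in a library. Its log2 values for 16921 genes equalled gene-wise condition and replicate terms plus 1 library constant, with a residual SD of 1.64e-15 and no zeros. The authors' deposited comparison tables also give a signal (the mean of observed counts divided by size factors) and the SE of a log2 fold change, which were used, and log2 fold changes, statistics and p-values, which were not.

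Here size factors were recovered as medians of ratios (0.415 to 2.12), each fitted value was divided by its size factor, and the geometric mean over 3 libraries gave the level. Log2 fold changes were level differences, divided by the deposited SE in a Wald test with Benjamini-Hochberg adjustment over 9938, 10103 and 10103 genes with a mean of at least 10. The model behind the SEs shared its spread over all 9 libraries. In the methods its batch term is a library date. No dates are given, and the deposited values show 1 such term per replicate number. No read totals are given. The lowest size factor (0.415) and the highest (2.12) both belonged to GFP-TTP-AA, in libraries 2 and 1. Depth bears on the results through the SEs and through the filter on the mean, and its part was not tested. Whether libraries came from separate cultures is not stated, so the spread behind the SEs is between these samples and may be technical. The p-values rest on SEs of a fit that shrinks fold changes, and the largest SE was 0.25 in each comparison. For genes at that upper end, such as Zfp36, the SE cannot be read as the gene's own spread. Named genes were the 3 members, the 5 genes nearest to each tested member, up to 4 genes per list with the largest change past the threshold in GFP-TTP-AA against GFP-TTP, and Tnf, Dusp1, Ier3, Mapkapk2 and Cnot1. The members and lists were chosen with earlier results of these data known. The alternatives were library sums for size factors, subtraction of the median of the gene's chromosome, the arithmetic mean over replicates, a stricter and no mean filter, a pseudocount of 10, joint adjustment over the 3 comparisons, transcript length for coding length, and Pearson correlation for RMS. Gene models and sequences came from GENCODE vM21. Analyses used Python 3.11.15, numpy 2.4.6, pandas 2.3.3, scipy 1.17.1, Biopython 1.88 and matplotlib 3.10.9.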

Additional observations from a re-analysis of the deposited data

How the results depend on the processing

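For Zfp36 and Zfp36l2 in the 3 comparisons, the 7 alternatives kept the direction, and the 5 of them with a test kept the side of the threshold with 1 exception. The pseudocount and the arithmetic mean gave values only. Zfp36 in GFP-TTP-AA against GFP-TTP (log2 fold change 0.73) had an adjusted p = 0.0651 when the 3 comparisons were adjusted together, and its adjusted p in the Wald test ranged from 0.0383 to 0.0651 over the alternatives. The log2 fold changes of Zfp36 ranged from 1.00 to 1.01 in GFP-TTP against GFP, from 1.71 to 1.74 in GFP-TTP-AA against GFP and from 0.71 to 0.73 between the constructs. The lower ends of the last 2 ranges came from subtracting the median of the gene's chromosome. The log2 fold changes of Zfp36l2 ranged from -0.83 to -0.81, from -0.64 to -0.61 and from 0.19 to 0.22, where -0.61 and 0.22 came from the same subtraction. Leaving out 1 library at a time was not run, since fitted values carry no residual spread to refit. No paired analysis was possible because the deposited values already hold a replicate term and no residual, so a fit with and without a replicate block cannot be set apart. Observed counts per library, which would show how far single libraries carry the change of Zfp36, were not used here.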
